A study of Mus musculus with 9 samples.

Results

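The annexins are a family of proteins that bind acidic phospholipids, above all phosphatidylserine, in the presence of calcium. Described here are 8 genes of the family, Anxa1, Anxa2, Anxa3, Anxa4, Anxa5, Anxa6, Anxa7 and Anxa11, in RAW264.7 cells, a macrophage-like mouse line that came from a tumor induced by Abelson leukemia virus. The genes were chosen by their symbols in GENCODE M21, with the values of all groups in view, and are 8 of the 28137 Ensembl identifiers deposited. Levels and fold changes of the 8 genes are therefore given as a description, with no p-value for a member. Where calls by the rule for all genes are stated, nothing is read from them.
According to the labels, all 9 libraries are of RAW264.7 cells grown in DMEM, given 60 nM of siRNA for 6 h, kept 12 h in complete medium and then exposed to lipopolysaccharide (LPS, 100 ng/ml), with RNA taken after 24 h. Of these, 3 received NC siRNA (the control), 3 SFRP2 siRNA and 3 RAB6A siRNA, so that every group carries an siRNA and LPS and none is an unstimulated control. The titles also carry a 6H that the labels do not explain, and the study's methods differ from the labels: they name an RPMI medium, a lower siRNA dose, a longer time before stimulation and IFN-γ beside LPS. Which of these applies to the libraries was not settled. The question asked by the study was how SFRP2 bears on the M1 phenotype, and the labels do not say which siRNA sequence each library of a group received or whether the libraries came from separate cultures, so that p-values measure only the spread between these libraries.

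Annexins share a core of repeats that folds around calcium and lies flat on a membrane, and they differ in the N-terminal part, where most of their protein partners bind. In macrophages they are known for membrane traffic, the sealing of wounded membranes, the handling of dying cells and the damping of inflammation. Anxa1 is induced by glucocorticoids and its N-terminal peptide acts on formyl peptide receptors. Anxa2 forms a tetramer with S100a10, and Anxa5, labeled with a dye, is the usual probe for phosphatidylserine on apoptotic cells.
Where libraries stand apart bears on all that follows. The deposited values allowed the reads behind them to be recovered, 40832074 to 46544869 per library in NC, 34296648 to 39935533 in the SFRP2 siRNA group and 32297214 to 37052593 in the RAB6A siRNA group. The most abundant gene took 3.49 to 4.29% of the reads in the first 6 libraries and 8.63 to 9.74% in the RAB6A siRNA libraries. The part that this shift in composition has in the values below was not tested. Of 10 macrophage markers, 9 had a mean FPKM of at least 0.5, and their summed FPKM was 4582 to 5050 in NC, 4054 to 4383 with SFRP2 siRNA and 3979 to 4142 with RAB6A siRNA; Mrc1 was at 0.0738 or lower in each group mean. Among these markers Lyz2 fell by 2.03, Csf1r by 1.44, Spi1 by 1.05 and Fcgr1 by 0.75 on the log2 scale with RAB6A siRNA, Ptprc rose by 0.17, and their part in the values of the annexins was not tested. None of the lists for T cells, B cells, neutrophils and epithelium had a member with a mean of 0.5. Of the fibroblast and endothelial markers (4 each), 3 and 1 passed the filter of 0.5 FPKM in RAB6A siRNA against NC, with no value above 1.32 FPKM. Col1a2, Dcn and Pecam1 had means of 0.310, 0.348 and 0.475 FPKM in NC and 0.825, 0.701 and 0.830 with RAB6A siRNA. They passed the filter only through the group where they are higher, so no test is read for them. Col1a1 had a log2 fold change of -0.08 (limma adjusted p = 0.86). Cdh5, an endothelial marker that did not pass, fell from 0.380 in NC to 0.152 with RAB6A siRNA, without overlap. The summed FPKM of the fibroblast list was 1.13 to 2.10 in NC and 1.73 to 2.90 with RAB6A siRNA, that of the endothelial list was 0.873 to 0.934 and 0.902 to 1.17, and their part in the values of the annexins was not tested. In bulk RNA, fewer cells of a type and less RNA per cell cannot be told apart.
Rab6a itself had an FPKM of 24.3, 27.3 and 25.5 in NC and 21.2, 20.7 and 20.4 in the RAB6A siRNA libraries, and it fell by 0.31 on the log2 scale (standard error, SE, 0.06, limma adjusted p = 0.0024). With a correction for GC content and exon length this value was 0.02 and the call was lost (adjusted p = 0.79, and 0.00073 to 0.79 over 17 alternatives). Sfrp2 rested on 2 to 4 reads in every library, which gives no check of the SFRP2 siRNA label.

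The 8 genes lie on 7 chromosomes of the mouse genome (GRCm38, GENCODE M21), with Anxa7 and Anxa11 both on chromosome 14. Anxa1 spans 20373428 to 20390944 of chromosome 19 on the - strand, and Anxa2 spans 69453620 to 69491795 of chromosome 9 on the + strand. On the - strand are also Anxa5, at 36448923 to 36475894 of chromosome 3, and Anxa6, at 54979108 to 55033445 of chromosome 11. Anxa11 takes 25842156 to 25886804 of chromosome 14 on the + strand, and Anxa7 takes 20455260 to 20480133 there on the - strand. Anxa3 is at 96793339 to 96845966 of chromosome 5 (+ strand) and Anxa4 at 86736840 to 86793584 of chromosome 6 (- strand). The longest coding sequence is that of Anxa6, with 673 codons in 26 exons, since this member carries the annexin core in duplicate. Those of Anxa1, Anxa2, Anxa3, Anxa4 and Anxa5 have 319 to 346 codons in 12 or 13 exons. Anxa7 and Anxa11, with their long N-terminal parts, have 463 and 503. Gene models named Gm16144, Gm42603 and Gm44036 overlap 98, 112 and 75 exonic bases of Anxa2, Anxa3 and Anxa4, and their reads may be shared.

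Promoter windows, from 250 bases before to 50 after the RefSeq start on GRCm38.p6, were held for 6 of the 8 genes (8 windows, since Anxa4 and Anxa7 have 2 each). Shown are those of the member whose 3 groups overlapped (Anxa1), of the leading member, which was lower with RAB6A siRNA (Anxa5), and of 2 members that were higher by a like factor (Anxa2 and Anxa11), each 5′ to 3′ on the gene's strand. Capitals mark matches, on either strand, to the TATA box (TATAAA), the GC box (GGGCGG) or the AP-1 site (TGANTCA).
Anxa1, chr19:20390622-20390921, - strand: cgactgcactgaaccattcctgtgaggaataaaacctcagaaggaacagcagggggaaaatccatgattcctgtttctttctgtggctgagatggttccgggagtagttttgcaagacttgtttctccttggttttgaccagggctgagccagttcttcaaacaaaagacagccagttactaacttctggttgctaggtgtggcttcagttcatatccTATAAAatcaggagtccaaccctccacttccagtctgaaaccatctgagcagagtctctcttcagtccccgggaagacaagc
Anxa5, chr3:36475838-36476137, - strand: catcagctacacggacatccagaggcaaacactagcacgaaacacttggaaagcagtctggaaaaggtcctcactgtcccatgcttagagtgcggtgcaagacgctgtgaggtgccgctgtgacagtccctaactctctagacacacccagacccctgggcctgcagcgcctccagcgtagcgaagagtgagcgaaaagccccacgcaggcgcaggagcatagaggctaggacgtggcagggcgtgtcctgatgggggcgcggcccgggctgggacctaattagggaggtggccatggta
Anxa2, chr9:69453433-69453732, + strand: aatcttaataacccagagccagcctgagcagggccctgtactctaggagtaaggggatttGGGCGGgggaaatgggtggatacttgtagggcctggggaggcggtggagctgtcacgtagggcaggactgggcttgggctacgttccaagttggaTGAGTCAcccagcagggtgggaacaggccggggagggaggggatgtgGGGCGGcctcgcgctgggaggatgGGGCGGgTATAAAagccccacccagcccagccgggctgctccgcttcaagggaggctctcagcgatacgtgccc
Anxa11, chr14:25841905-25842204, + strand: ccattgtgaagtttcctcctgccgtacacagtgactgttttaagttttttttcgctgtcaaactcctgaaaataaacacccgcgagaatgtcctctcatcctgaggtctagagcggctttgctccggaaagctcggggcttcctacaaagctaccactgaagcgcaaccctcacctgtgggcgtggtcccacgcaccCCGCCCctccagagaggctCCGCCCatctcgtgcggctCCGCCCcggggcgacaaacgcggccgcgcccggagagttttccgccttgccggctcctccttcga
The windows are unlike each other. That of Anxa1 has 47.3% GC and 3 CpG dinucleotides, with a TATA box whose first base is at -32 from the start. That of Anxa2 has 63.7% GC and 13 CpG, with a TATA box at -17, GC boxes at -190, -48 and -24 and an AP-1 site at -95. The Anxa11 window has 59.7% GC, 25 CpG and GC boxes at -53, -34 and -15. The Anxa5 window has 60.3% GC and 16 CpG and holds none of the 6 motifs searched, which also were CCAAT, the E-box (CACGTG) and the PU.1 core (GAGGAAGT). No match overlapped another. Over 32851 windows of the same length the median was 52.7% GC and 7 CpG, and 13.6% held TATAAA, 35.7% GGGCGG, 7.81% TGANTCA, 37.4% CCAAT, 7.15% CACGTG and 3.20% GAGGAAGT. A GC box was found in windows of 4 of the 6 genes (Anxa2, Anxa4, Anxa7 and Anxa11), and TATAAA in those of Anxa1 and Anxa2. These are matches of letters and not sites.

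Anxa5 dominated the family in every library. FPKM is scaled here to the exon length of a gene over all its transcripts, which exceeds that of its principal transcript unevenly. The 2 lengths are 1777 and 1731 bases for Anxa5, 3731 and 1447 for Anxa2 and 5991 and 2851 for Anxa7. The order, spans, shares and sums below hold for FPKM and depend on this length, which understates genes such as Anxa2 if the principal transcript prevails. In NC the mean FPKM ran from 979.4 ± 35.7 (SD, n = 3) for Anxa5 down to 6.68 ± 0.521 (SD, n = 3) for Anxa6, a span of 147-fold, in the order Anxa5, Anxa2, Anxa1, Anxa7, Anxa4, Anxa3, Anxa11, Anxa6. No neighbors in this order overlapped in NC, although the lowest Anxa11 library (7.09) and the highest Anxa6 library (7.07) nearly met. The order was the same with SFRP2 siRNA, where Anxa2 and Anxa1 overlapped. With RAB6A siRNA it became Anxa5, Anxa2, Anxa1, Anxa4, Anxa6, Anxa3, Anxa7, Anxa11, with overlaps between Anxa6 and Anxa3 and between Anxa3 and Anxa7, and the span from Anxa5 to Anxa11 was 35.7-fold. Among all 28137 identifiers, Anxa5 ranked 28 by mean FPKM in NC, 34 with SFRP2 siRNA and 95 with RAB6A siRNA. Anxa6 ranked 5392, 6227 and 1604.

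**Figure D1:**
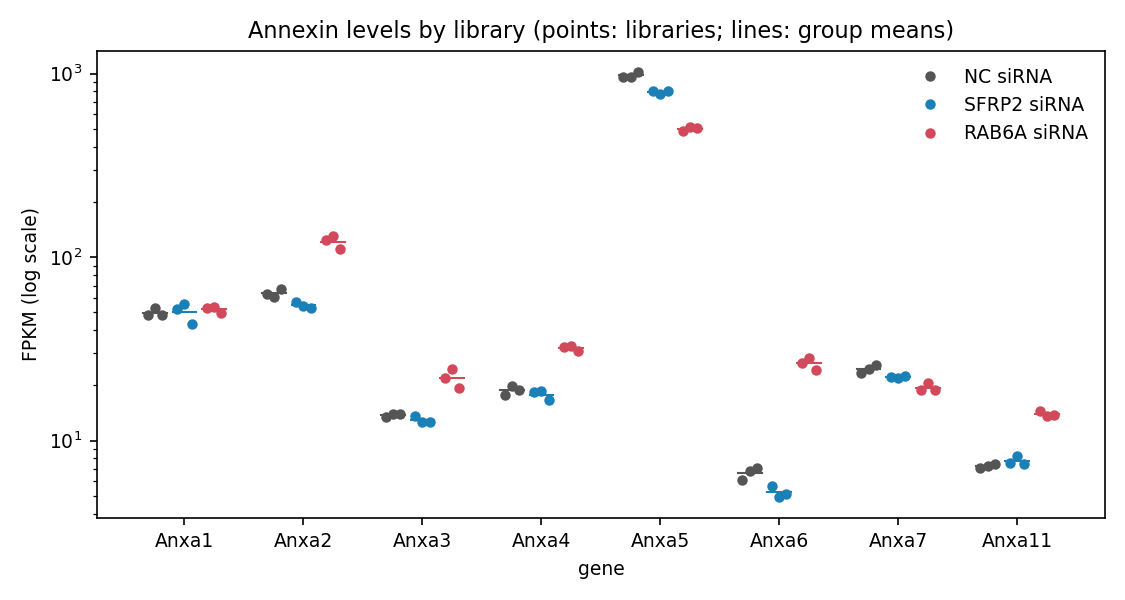
FPKM of the 8 annexins in each library on a log axis, by siRNA group; points are libraries and lines are group means. Anxa5 is at 486.3 FPKM or more in all 9 libraries, and the RAB6A siRNA libraries lie apart from NC in 7 of the 8 genes, all but Anxa1, where the groups of 77.4% of all genes tested did not overlap.

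Anxa6, which binds cholesterol-rich membranes and late endosomes and takes part in membrane repair, had the largest difference of the family. Its FPKM was 6.09, 6.87 and 7.07 in NC, 5.65, 4.96 and 5.14 with SFRP2 siRNA and 26.4, 28.2 and 24.4 with RAB6A siRNA, from 523 to 3126 reads per library. The lowest RAB6A siRNA library (24.4) was far above the highest of the other 6 (7.07). The fitted log2 fold change of RAB6A siRNA against NC was 1.97 (SE 0.08), or 3.90-fold, and 9.16% of all genes tested differed by more in either direction.
Anxa2, which with S100a10 bridges membranes and actin and binds plasminogen at the cell surface, had the second highest level. Its FPKM was 63.0, 60.9 and 67.1 in NC, 57.1, 54.3 and 52.8 with SFRP2 siRNA and 123.4, 130.7 and 110.5 with RAB6A siRNA. The 3 groups did not overlap, with the SFRP2 siRNA libraries lowest and the RAB6A siRNA libraries highest. The log2 fold change against NC was 0.93 (SE 0.08) with RAB6A siRNA.
Anxa11, which binds the calcium sensor Pdcd6 and S100a6 and tethers RNA granules to lysosomes, was low in NC, at 7.09, 7.32 and 7.45 FPKM. It was at 7.60, 8.28 and 7.42 with SFRP2 siRNA and at 14.6, 13.7 and 13.8 with RAB6A siRNA. Its log2 fold change of RAB6A siRNA against NC, 0.93 (SE 0.06), was like that of Anxa2, while its SFRP2 siRNA libraries overlapped NC. An antisense gene, Anxa11os, overlaps 113 exonic bases of Anxa11 (2.73% of its exon length), and 2 further genes, Gm2260 and Gm2274, share 657 and 609 bases with it at 100 and 99.7% identity. Anxa11os was at 0.0128 FPKM in NC and 1.00 ± 0.310 (SD, n = 3) with RAB6A siRNA, from 0 to 116 reads, and without knowing whether strand was counted, reads of the overlap cannot be told apart.

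Anxa4 and Anxa3 were also higher with RAB6A siRNA. Anxa4, a member of epithelial and secretory cells that gathers on wounded membranes, had an FPKM of 17.7, 19.9 and 19.0 in NC, 18.3, 18.5 and 16.6 with SFRP2 siRNA and 32.2, 32.8 and 30.7 with RAB6A siRNA. Its log2 fold change of RAB6A siRNA against NC was 0.76 (SE 0.06). Anxa3, known from the granules of neutrophils and from phagosomes, was at 13.5, 14.0 and 13.9 in NC and 13.7, 12.6 and 12.7 with SFRP2 siRNA. With RAB6A siRNA it was at 22.1, 24.7 and 19.2, the widest relative spread of the 8 genes in this group, and the log2 fold change was 0.66 (SE 0.09). For both genes the NC and SFRP2 siRNA libraries overlapped and the RAB6A siRNA libraries lay above both.

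Anxa5 and Anxa7 were lower. The FPKM of Anxa5 was 963.8, 954.3 and 1020 in NC, 798.7, 772.7 and 802.5 with SFRP2 siRNA and 486.3, 510.9 and 503.2 with RAB6A siRNA, from 29290 to 79956 reads per library. The groups did not overlap and stood in the order NC, SFRP2 siRNA, RAB6A siRNA. The log2 fold change was -0.97 (SE 0.07) with RAB6A siRNA, which left 500.1 of 979.4 FPKM on average.
Anxa7, or synexin, which fuses membranes and binds sorcin (Sri), had smaller differences in the same order. It was at 23.4, 24.7 and 26.0 FPKM in NC, 22.3, 21.9 and 22.5 with SFRP2 siRNA and 18.9, 20.6 and 18.9 with RAB6A siRNA, without overlap. Its log2 fold change of RAB6A siRNA against NC was -0.34 (SE 0.06), and this value was -0.03 after a correction for GC content and exon length, which ended its call.
Anxa1 was the member with no difference beyond the spread between libraries. Its FPKM was 48.3, 52.5 and 48.2 in NC, 52.1, 55.7 and 43.1 with SFRP2 siRNA and 52.9, 53.4 and 49.5 with RAB6A siRNA. All 3 groups overlapped, and the log2 fold change of RAB6A siRNA against NC was 0.07 (SE 0.06). It was 0.21 with quantile normalization and 0.33 with the correction for GC content and exon length, and was called under both.

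All 8 genes passed the filter on low values. Under the call rule used for all genes (adjusted p under 0.05 in limma), 7 of the 8 were called in RAB6A siRNA against NC, where 74.1% of 12712 genes tested were called. Of the 8, 5 were called higher (37.6% of all genes) and 2 lower (36.5% of all genes). Since the members were chosen with these values in view, nothing is read from these counts. The median log2 fold change of the 8 was 0.71, against 0.03 over all genes tested, and 1 of the 8, Anxa6, passed an absolute value of 1. Within the RAB6A siRNA group, replicate 3 was the lowest library in 6 of the 8 genes, all but Anxa5 and Anxa11.

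**Figure D2:**
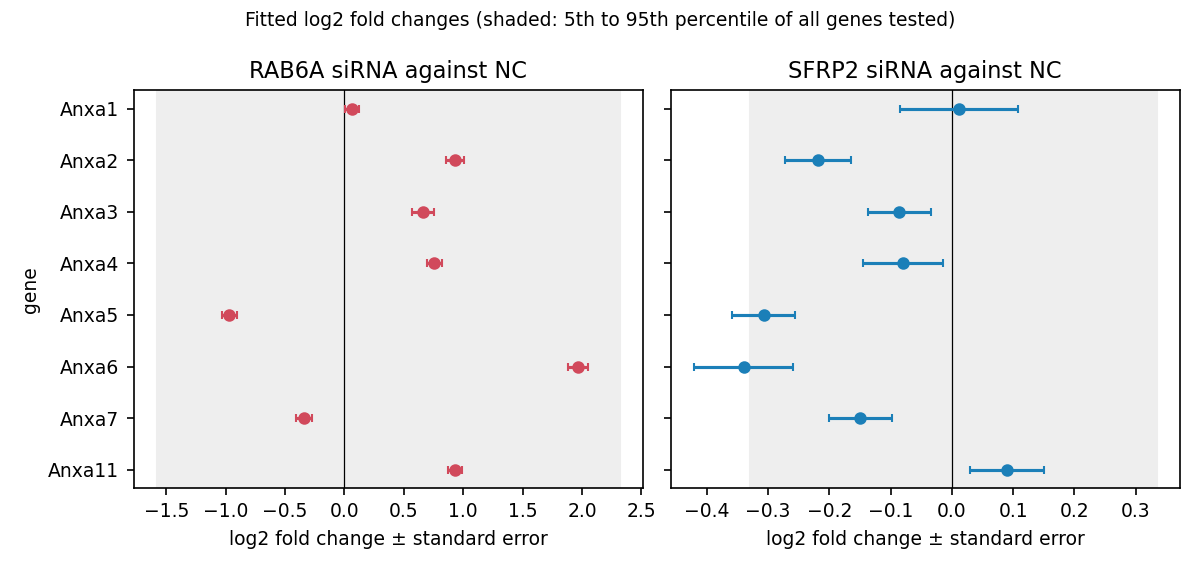
Fitted log2 fold changes with standard errors of the 8 annexins in RAB6A siRNA against NC (left) and SFRP2 siRNA against NC (right), 3 libraries a group; the shaded band is the 5th to 95th percentile of all genes tested, and the 2 axes differ in scale. The values run from -0.97 (Anxa5) to 1.97 (Anxa6) on the left and from -0.34 (Anxa6) to 0.09 (Anxa11) on the right.

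Differences with SFRP2 siRNA were small. Of the 8 genes 0 were called against NC, as were 0.0% of the 12017 genes tested with limma, although 2220 genes had an unadjusted p under 0.05. A test of the recovered reads with voom called 42 of 11903 genes, among them Anxa5. Since the members were chosen with these values in view, nothing is read from that call. The log2 fold changes were -0.34 (SE 0.08) for Anxa6, -0.31 (0.05) for Anxa5, -0.22 (0.05) for Anxa2 and -0.15 (0.05) for Anxa7. In these 4 genes every SFRP2 siRNA library lay below every NC library, as in 13.9% of all genes tested, and 24.7% of all genes had groups that did not overlap in either direction. The other 4 genes overlapped, with log2 fold changes of -0.09 for Anxa3, -0.08 for Anxa4, 0.01 for Anxa1 and 0.09 for Anxa11. Both comparisons with NC share its libraries, so that side by side they are not independent.
RAB6A siRNA against SFRP2 siRNA uses no NC library. There 7 of the 8 were called, where 73.4% of 12764 genes were. The log2 fold change was 2.31 (SE 0.08) for Anxa6, 1.15 (0.07) for Anxa2, 0.84 (0.07) for Anxa11, 0.84 (0.06) for Anxa4 and 0.75 (0.10) for Anxa3. It was -0.66 (0.06) for Anxa5, -0.19 (0.06) for Anxa7 and 0.05 (0.10) for Anxa1, the member not called. Anxa7 kept its call in 13 of 17 alternatives. Its value became 0.12 after the correction for GC content and exon length, and its call was also lost with quantile normalization (-0.08), without RAB6A replicate 1 (-0.17) and without SFRP2 replicate 1 (-0.19).

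The make-up of the family shifted with RAB6A siRNA. Anxa5 made up 84.1 ± 0.399% of the summed FPKM of the 8 genes in NC, 82.2 ± 1.02% with SFRP2 siRNA and 63.5 ± 1.55% with RAB6A siRNA (SD, n = 3 each). The share of Anxa2 was 5.47 ± 0.113%, 5.69 ± 0.189% and 15.4 ± 0.938%. That of Anxa6 was 0.573 ± 0.0363%, 0.545 ± 0.0303% and 3.34 ± 0.154%. Anxa1, whose level stayed within its spread, went from 4.27 ± 0.313% in NC to 6.60 ± 0.196% with RAB6A siRNA. The summed FPKM was 1164 ± 38.8 in NC, 962.4 ± 13.2 with SFRP2 siRNA and 787.3 ± 24.1 with RAB6A siRNA. Without Anxa5 it was 184.6 ± 4.96, 171.1 ± 9.45 and 287.2 ± 18.7. Thus the sum with RAB6A siRNA was 67.6% of that in NC with Anxa5 counted and 155.5% of it without. These sums and shares, and the level of the ratio that follows, rest on the exon lengths named above. The ratio of Anxa5 to Anxa2 was 15.4 ± 0.247 in NC, 14.5 ± 0.647 with SFRP2 siRNA and 4.13 ± 0.364 with RAB6A siRNA.

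**Figure D3:**
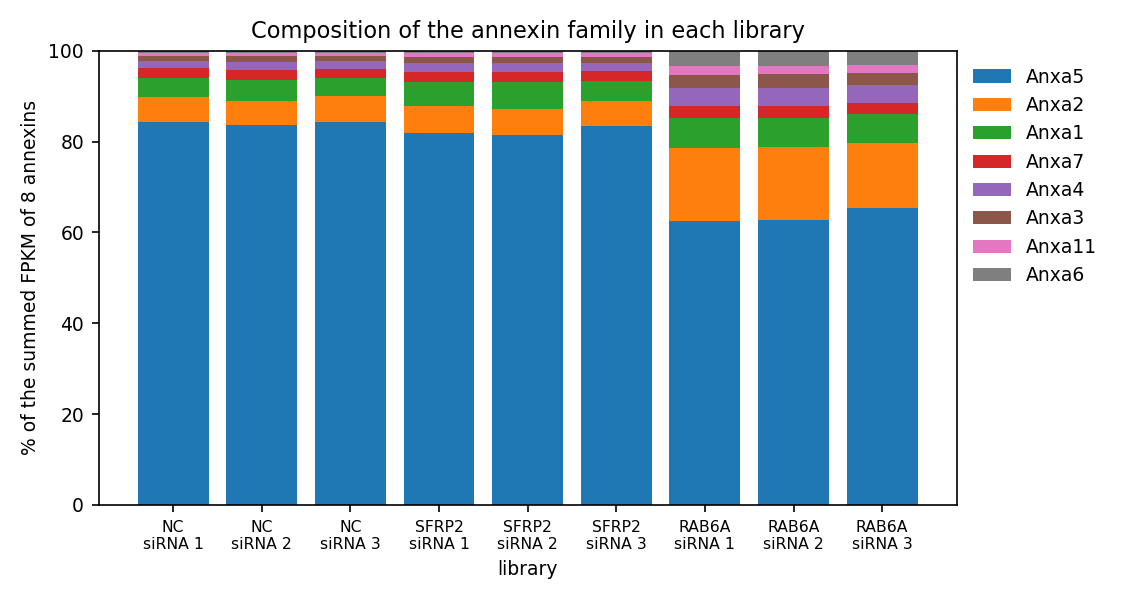
Share of each annexin in the summed FPKM of the 8 genes (%), one stacked bar per library. Anxa5 holds 81.4 to 84.4% in the 6 NC and SFRP2 siRNA libraries and 62.6 to 65.3% in the 3 RAB6A siRNA libraries.

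Of the other annexins, Anxa9 was low, at 1.82 ± 0.389 FPKM in NC, 1.64 ± 0.0272 with SFRP2 siRNA and 1.59 ± 0.0662 with RAB6A siRNA (SD, n = 3 each). It was the only one of them to pass the filter, and its log2 fold change of RAB6A siRNA against NC was -0.16 (SE 0.15, limma adjusted p = 0.362). Anxa8 rested on 2 to 22 reads and Anxa10 on 0 to 2 reads per library. Anxa13 was not analysed here.

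Partners of the annexins were compared next, with lists written from general knowledge. Of 66 partner genes tested in RAB6A siRNA against NC, 46 passed (69.7%, against 74.1% of all genes), 26 higher and 20 lower. Over all genes tested 37.6% were called higher and 36.5% lower. In the counts by list below, genes that rose or fell are those called. In SFRP2 siRNA against NC 0 of 65 passed with limma, 10 had an unadjusted p under 0.05, and voom on the recovered reads also called 0. In RAB6A siRNA against SFRP2 siRNA 49 of 65 passed (75.4%, against 73.4% of all genes).
The S100 and EF-hand list holds the small calcium sensors that dock on annexin N-termini, and 6 of its 9 genes tested rose and 1 fell with RAB6A siRNA (median log2 fold change 0.36). S100a11, the partner of Anxa1, had an FPKM of 560.5, 668.6 and 695.1 in NC and 1339, 1183 and 1435 with RAB6A siRNA, and it rose by 1.04 on the log2 scale (SE 0.11, limma adjusted p = 9.7e-05). This value was 0.42 after the correction for GC content and exon length (adjusted p = 0.010, and 1.3e-08 to 0.010 over 17 alternatives). S100a6, the partner of Anxa11, rose by 1.20 (SE 0.15, limma adjusted p = 0.00020). Sri, the partner of Anxa7, rose by 0.57 (SE 0.08, limma adjusted p = 0.00052), the opposite direction to Anxa7. S100a10, the partner of Anxa2, was at 121 ± 2.17 FPKM in NC and 137 ± 8.27 with RAB6A siRNA, a log2 fold change of 0.17 (SE 0.06, limma adjusted p = 0.034), and it kept its call in 7 of 17 alternatives (adjusted p 0.0054 to 0.32). Pdcd6, the other partner of Anxa11, had a log2 fold change of 0.16 (limma adjusted p = 0.077), and S100a1 one of 0.20 (adjusted p = 0.119). The 1 gene of the list that fell, named after its value was seen, was S100a4, by 0.96.
In FPKM, then, annexins and their partners did not keep a common ratio. Anxa2 to S100a10 was 0.525 ± 0.0201 in NC, 0.473 ± 0.0152 with SFRP2 siRNA and 0.886 ± 0.0229 with RAB6A siRNA. Anxa11 to Pdcd6 was 0.423 ± 0.0139, 0.487 ± 0.0561 and 0.729 ± 0.0656. Anxa1 to S100a11 was 0.0780 ± 0.00847, 0.0784 ± 0.0160 and 0.0397 ± 0.00531, and Anxa7 to Sri 3.29 ± 0.112, 3.33 ± 0.0640 and 1.75 ± 0.206 (SD, n = 3 throughout). The first pair of ratios was higher and the second pair lower with RAB6A siRNA, each without overlap with either other group. These ratios are of uncorrected FPKM. With the correction for GC content and exon length Anxa1 had a log2 fold change of 0.33 and S100a11 one of 0.42. Most of the fall of their ratio was thus not kept. Anxa11 to S100a6 overlapped between NC (0.0969 to 0.114) and RAB6A siRNA (0.0726 to 0.110).

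**Figure D4:**
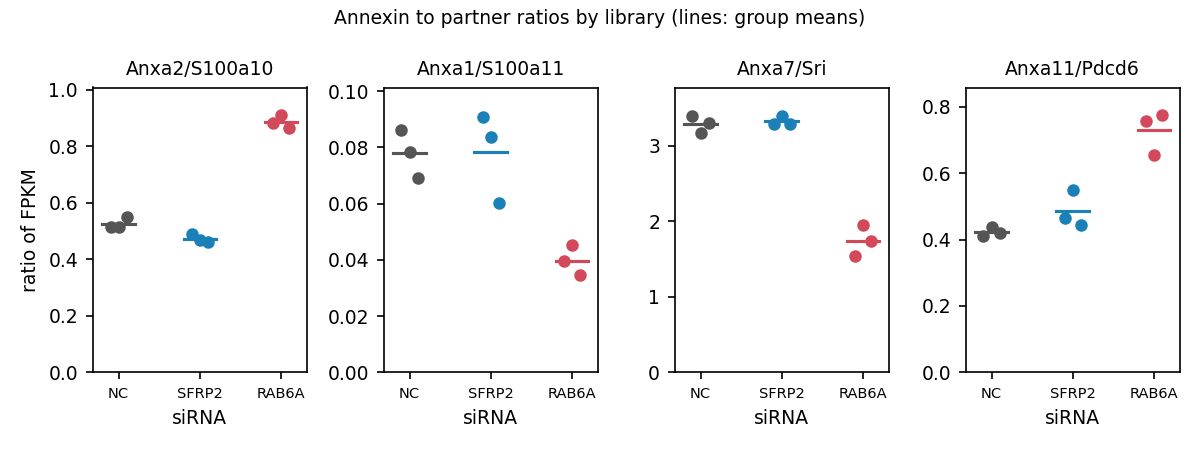
Ratio of the FPKM of an annexin to that of a protein partner in each library, by siRNA group; points are libraries, lines are group means and each axis starts at 0. Anxa2/S100a10 and Anxa11/Pdcd6 are highest and Anxa1/S100a11 and Anxa7/Sri lowest with RAB6A siRNA. The FPKM carry no correction for GC content and exon length.

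The receptors for the Anxa1 peptide were among the partners that moved most. Fpr2, which binds the Anxa1 peptide and lipoxin, had an FPKM of 1.84, 3.11 and 2.03 in NC, 2.17, 1.89 and 2.31 with SFRP2 siRNA and 0.170, 0.245 and 0.118 with RAB6A siRNA. It fell by 3.12 on the log2 scale (SE 0.28). Fpr1, the receptor for bacterial formyl peptides, was at 0.835, 1.03 and 1.24 in NC and 0.125, 0.0799 and 0 with RAB6A siRNA. It fell by 2.82 (SE 0.42). The means with RAB6A siRNA, 0.177 for Fpr2 and 0.0682 for Fpr1, are under the filter of 0.5 FPKM. Both genes thus passed it only through NC, and no p-value is read for them. Fpr1 was not tested in RAB6A siRNA against SFRP2 siRNA. Both are low genes, with at most 190 and 70 reads, and their fold change depends on the pseudocount (from -4.38 to -0.93 for Fpr1 and from -3.92 to -1.48 for Fpr2 over the alternatives). The 5 other genes of the list were not analysed here. Anxa1 itself, as given above, overlapped between the groups.
The glucocorticoid receptor Nr3c1, upstream of Anxa1, rose by 0.41 (SE 0.09, limma adjusted p = 0.0034), from 3.94 ± 0.354 to 5.25 ± 0.212 FPKM (SD, n = 3 each). In the list of this receptor and its known targets, 6 of 9 genes tested rose and 1 fell (median 0.52). These 7 calls stand where 74.1% of all genes tested were called. The 1 gene that fell, named after its value was seen, was Sgk1, by 1.20 (limma adjusted p = 0.00099). Dusp1, a phosphatase of MAP kinases, rose by 1.57 and Per1, a clock gene, by 1.32 (limma adjusted p = 7.1e-06 and 1.5e-05). Mt1, a metallothionein, had a log2 fold change of 0.35 and the chaperone Fkbp5 one of -0.08 (limma adjusted p = 0.067 and 0.36). These targets also answer to signals other than glucocorticoids, and no steroid is named in the labels.

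Genes that move phosphatidylserine to the outer leaflet, where Anxa5 binds it, changed in both directions. Of 8, 2 rose and 4 fell with RAB6A siRNA, with a median of -0.13, where 74.1% of all genes tested were called. Ano6, a calcium-activated scramblase, fell by 0.45 (limma adjusted p = 0.00064), and Plscr1 fell by 0.38 (adjusted p = 0.016), a call lost without NC replicate 1 and with the GC and length correction (adjusted p 0.0046 to 0.17 over 17 alternatives). Tmem30a, the subunit of the flippases that bring the lipid back, rose by 0.26 (limma adjusted p = 0.0076). Plscr3 had a log2 fold change of 0.13 (limma adjusted p = 0.088).
Of 12 genes tested for the recognition and engulfment of phosphatidylserine, 6 rose and 3 fell (median 0.27), beside 74.1% of all genes called. Mfge8, a secreted bridge between the lipid and integrins, rose by 1.06, and the receptor Cd300lf by 0.61 (limma adjusted p = 3.3e-05 and 9.4e-05). Lrp1 fell by 0.22 (limma adjusted p = 0.015), a call lost without NC replicate 1, without NC replicate 3 and with quantile normalization (adjusted p 0.0014 to 0.33 over 17 alternatives), and the GTPase Rac1 had a log2 fold change of 0.01 (limma adjusted p = 0.89). The ends of this list, named after their values were seen, were Axl, a receptor tyrosine kinase that recognizes the lipid through Gas6, which rose by 1.94, and the inhibitory receptor Cd300a, which fell by 2.13.
Of 12 plasma membrane repair genes, 5 rose and 3 fell (median 0.09), beside 74.1% of all genes called. Chmp4b, an ESCRT-III subunit, rose by 0.66 (limma adjusted p = 5.5e-05), and Vps4b, the ATPase that takes ESCRT-III apart, fell by 0.41 (limma adjusted p = 0.0011). Capns1, the small calpain subunit, and Pdcd6ip, or Alix, had log2 fold changes of 0.11 and -0.08 (limma adjusted p = 0.24 and 0.32).
Among 5 copines and other C2-domain proteins, which like annexins bind phospholipids with calcium, 1 rose and 3 fell (median -0.19). The share called over all genes tested was 74.1%. Prkca fell by 0.88 and Cpne8 by 0.60 (limma adjusted p = 4.6e-05 and 0.00011), and Cpne2 rose by 0.26 (adjusted p = 0.015), a call lost without NC replicate 1 (adjusted p 0.00095 to 0.057 over 17 alternatives). Pla2g4a, the phospholipase whose action Anxa1 is known to damp, fell by 0.19 (limma adjusted p = 0.048) and kept its call in 7 of 17 alternatives (adjusted p 0.016 to 0.40).
Of 9 actin and phosphoinositide partners 0 rose and 3 fell (median -0.03), beside 74.1% of all genes called. Actb fell by 0.37 (limma adjusted p = 0.0023). Pfn1, Cfl1 and Actg1 had log2 fold changes of 0.16, -0.03 and 0.15 (limma adjusted p = 0.15, 0.64 and 0.12).

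**Figure D5:**
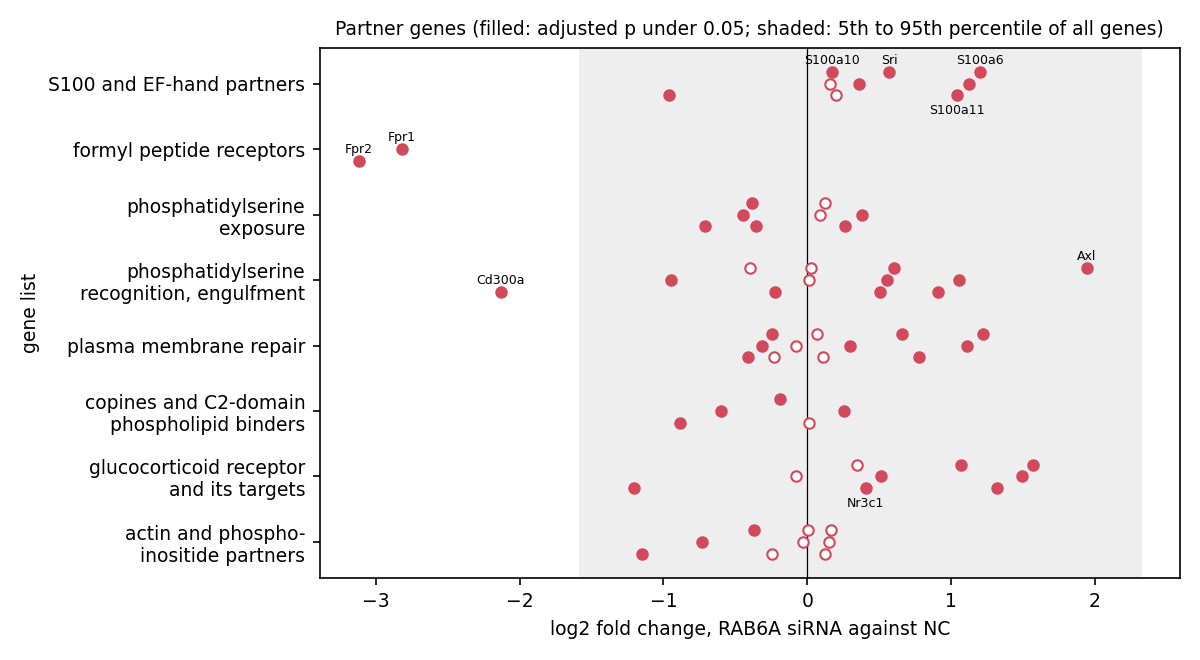
Log2 fold change of RAB6A siRNA against NC for each partner gene tested, by list; filled points passed an adjusted p under 0.05 in limma, open points did not, and the shaded band is the 5th to 95th percentile of all genes tested. Fpr1, Fpr2 and Cd300a lie below the band, and no gene lies above it. Fpr1 and Fpr2 passed the filter on low values only through NC, and Syt7 only through RAB6A siRNA.

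The genes whose profile over the 9 libraries was most like that of an annexin were sought among 12549 genes, by the root mean square distance of centered log2 values. Nearest to Anxa6 were Castor1 (0.0836), Tnni2 (0.104) and Abtb1 (0.112). Nearest to Anxa5 were Thop1 (0.0448), Tubb6 (0.0506) and Srsf9 (0.0598), and nearest to Anxa11 were Tmed8 (0.0502), Cdip1 (0.0558) and Gins3 (0.0559). Tnni2, a troponin subunit of fast muscle, was at 13.2 ± 1.93 FPKM in NC, 10.8 ± 0.655 with SFRP2 siRNA and 50.8 ± 6.00 with RAB6A siRNA. Thop1, a peptidase, was at 16.2 ± 0.781, 12.96 ± 0.365 and 7.99 ± 0.182 (SD, n = 3 each), so that like Anxa5 it stood in the order NC, SFRP2 siRNA, RAB6A siRNA. The likeness is a description over libraries that fall into groups and carries no test.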

How the data were processed

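Gene expression of RAW264.7 cells was analysed in 9 RNA-seq libraries, 3 per siRNA group, grouped by the treatment in the labels. The values deposited by the authors are FPKM (paired-end reads scaled to gene length and library size). Per the submitters' processing notes HISAT2, Subread and featureCounts were used; versions, genome build, annotation and strand setting are not given in the sources used here. Every per-sample column was used. Of 28137 Ensembl identifiers 27533 were named from GENCODE M21. In 98.3% of these, FPKM multiplied by exon length was a whole number of reads (within 0.03) in all 9 libraries; mates of a pair mostly count as 2. These reads state depth and serve an alternative.
FPKM was tested as log2(FPKM + 0.1), which understates the change of low genes, with limma 3.58.1 in R 4.3.3 (trended eBayes). Genes were tested where the mean over the 6 libraries compared was 0.5 FPKM or more, with Benjamini-Hochberg adjustment over all genes tested. The code was also run on simulated data in which few genes changed. RAB6A siRNA against NC is unlike that, so that this run does not check its calls. The study's methods name a model of raw counts, which FPKM cannot feed. Tables used Python 3.11.15, pandas 2.3.3 and numpy 2.4.6. Replicate numbers were not taken to pair the libraries. The annexins and lists were chosen with earlier results of these data known. Named were all 8 annexins, up to 4 partners per list with the highest mean FPKM, direct binders and the 3 most alike genes of the 3 annexins with the largest fold change. Alternatives changed the pseudocount, filter, scaling, test, block, GC and length correction, and libraries. Promoters are RefSeq windows on GRCm38.p6; no build was given for the deposited values, so that the coordinates are those of the annotation.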

Additional observations from a re-analysis of the deposited data

How the results depend on the processing

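Each comparison was recomputed under 17 alternatives. The number of annexins called in RAB6A siRNA against NC was 8 with quantile normalization and 7 under the other 16, and ranged from 7 to 7 when libraries were left out one at a time, against 0 to 0 in SFRP2 siRNA against NC and 6 to 7 in RAB6A siRNA against SFRP2 siRNA. Of partner genes, with libraries left out in the same way, 40 to 47 passed in the first, 0 to 0 in the second and 45 to 49 in the third. Other alternatives changed which partners passed. In RAB6A siRNA against NC the correction for GC content and exon length called Rac1, Cfl1, Actg1 and Pdcd6ip, among others not called before. It ended the calls of S100a10, Plscr1 and Pla2g4a, among others. For SFRP2 siRNA against NC, voom on recovered reads called 1 annexin, Anxa5, among 42 of 11903 genes called, and the cause was not tested. The log2 fold change of Anxa7 in RAB6A siRNA against SFRP2 siRNA turned to 0.12 with the correction for GC content and exon length, and the cause was not tested. This correction and quantile normalization moved most of the values that moved: of 136 values a comparison (8 annexins under 17 alternatives), 122, 133 and 126 moved by less than the spread between replicates and 14, 3 and 9 by more, beside the 1 of Anxa7 that turned in the third comparison. With quantile normalization the value of Anxa5 in RAB6A siRNA against NC was -1.49. The median of all genes stayed within 0.1 of 0 on the log2 scale.
Libraries with the same replicate number did not deviate together (mean correlation -0.0102 over 9 pairs, range -0.0847 to 0.0477). This does not tell whether they were handled together. In SFRP2 siRNA against NC 2988 genes had an unadjusted p under 0.05 in limma with the replicate block, against 2220 without it. With the replicate block 7, 0 and 7 annexins were called, as without it, and 45 partner genes in RAB6A siRNA against NC in place of 46. Anxa8 and Anxa10 are too few in reads for a difference to be detectable at this depth.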
